A study of Mus musculus with 12 samples.

Results

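The inhibitory receptor and phosphatase genes are 8 genes given by name, a choice made with earlier results of these data known: the receptor genes Cd22, Cd72, Fcgr2b, Siglecg, Lair1 and Cd5, and the phosphatase genes Ptpn6 and Inpp5d. All 8 are among the 22561 genes of the deposited count table, and 6 of them are among the 9431 genes with enough counts to be tested. Cd5 and Lair1 had at most 6 counts in any sample and were not tested. RNA was measured in splenic FO B cells sorted from C57BL6 mice aged 10 weeks by surface markers that included B220hi, AA4.1-, CD23+ and CD21mid, with 3 samples in each of 4 groups. The groups were unstimulated cells and cells that had received IFNα, CpG or CpG + IFNα during 12 h, with IFNα at 0.1 μg/mL. The dose of CpG was 1 μg/mL. A legend of the study gives another dose of CpG for the combination, and it is not stated whether the unstimulated cells were also cultured. If those cells were not, each comparison with them holds the culture as well as the stimulus. No transgene or deletion is named for any group. CpG is a synthetic DNA oligonucleotide and the agonist of TLR9, whereas IFNα belongs to the type I interferons.

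B cells carry receptors that restrain signaling by the B cell receptor (BCR). Many have an immunoreceptor tyrosine-based inhibitory motif (ITIM) in the cytoplasmic tail, which is phosphorylated by the kinase Lyn and then recruits a phosphatase. CD22 and Siglec-G, encoded by Siglecg, bind sialic acid and recruit SHP-1, the tyrosine phosphatase encoded by Ptpn6, as does CD72, whose ligand is the semaphorin encoded by Sema4d. FcγRIIB, encoded by Fcgr2b, binds the Fc part of IgG in immune complexes and recruits SHIP-1, the inositol phosphatase encoded by Inpp5d, which removes a phosphate from PIP3. CD5 is best known on T cells and B-1 cells, and LAIR-1 is a receptor for collagen.

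Sequences before the listed starts of the 4 genes whose levels fell most with CpG are shown as those of the DEGs among the 8 genes. Each is the 250 bases before the first start listed by RefSeq for the gene on GRCm38.p6, written 5′ to 3′ on the strand of the gene, and capitals mark a match to the ETS motif AGGAAGT on either strand. The start used for Cd22 lies 1314 bases inside the gene as GENCODE M21 annotates it, so that its window is within that gene. The start used for Siglecg, the first of 2 listed, lies 35 bases inside, that for Ptpn6 5 bases inside and that for Inpp5d at the first base of the gene.
Cd22 (chr7:30879029-30879278, minus strand): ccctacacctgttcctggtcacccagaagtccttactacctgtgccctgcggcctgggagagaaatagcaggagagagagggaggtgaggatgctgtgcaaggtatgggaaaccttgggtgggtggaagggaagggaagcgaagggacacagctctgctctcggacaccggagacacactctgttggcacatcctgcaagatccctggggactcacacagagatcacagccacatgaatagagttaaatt
Siglecg (chr7:43407989-43408238, plus strand): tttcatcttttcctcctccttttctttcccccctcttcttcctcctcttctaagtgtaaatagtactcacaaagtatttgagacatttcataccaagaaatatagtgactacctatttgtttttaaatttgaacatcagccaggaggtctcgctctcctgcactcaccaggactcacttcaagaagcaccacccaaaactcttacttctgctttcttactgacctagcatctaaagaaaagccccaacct
Ptpn6 (chr6:124738710-124738959, minus strand): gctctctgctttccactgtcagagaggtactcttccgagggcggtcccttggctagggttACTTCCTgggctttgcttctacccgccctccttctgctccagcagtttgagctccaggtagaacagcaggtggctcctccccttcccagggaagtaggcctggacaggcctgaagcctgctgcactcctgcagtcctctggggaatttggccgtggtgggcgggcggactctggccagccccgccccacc
Inpp5d (chr1:87620062-87620311, plus strand): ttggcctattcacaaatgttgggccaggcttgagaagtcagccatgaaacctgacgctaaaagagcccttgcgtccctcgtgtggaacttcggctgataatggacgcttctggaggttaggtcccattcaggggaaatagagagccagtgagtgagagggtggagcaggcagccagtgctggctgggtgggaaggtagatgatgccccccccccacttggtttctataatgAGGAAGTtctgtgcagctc
Both strands of all 8 sequences were searched for 7 motifs. The ETS motif, present in 7.8% of 27025 promoters of this length, was found in Ptpn6, Inpp5d, Cd72 and Cd5. Its first base on the strand of the gene lay 190, 19, 49 and 52 bases before the start of the respective gene. Fcgr2b had a match to the ETS-IRF composite motif, which 2.38% of promoters hold. The E-box CANNTG, present in 66% of promoters, was found in 7 of the 8 sequences, and Siglecg had no match to any of the 7 motifs. No match was found for the ISRE core (3.04% of promoters), the GAS motif TTCNNNGAA (7.18%), the octamer ATGCAAAT (1.61%) or the RUNX motif TGTGGT (14.2%). A match is a run of letters in this window and was not measured as a binding site.

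The total was between 922450 and 2923865 UMI counts per sample, and levels are given as CPM, the counts scaled to a common total, after normalization by TMM factors. The libraries count molecules at the 3′ end of transcripts, so that levels do not grow with transcript length. A gene whose 3′ end lies outside its annotation is counted too low, so that an order of levels between genes is one of the counts as deposited. CPM is a share of all RNA counted: fewer cells of a type and less RNA per cell cannot be told apart. Nothing in the sources says that the 3 samples of a group came from separate mice, so that the p-values measure only the spread between these samples, which may be technical. On the strand opposite Cd22, Cd72, Fcgr2b and Ptpn6, GENCODE M21 annotates other genes, and the strand setting of the counting is not given in the sources used here. Tesk1, opposite Cd72, had 10 counts over all 12 samples, the gene opposite Ptpn6 had 3, the gene opposite Cd22 had 0, and the gene opposite Fcgr2b is not a row of the table.

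In unstimulated cells, Ptpn6 had the highest level of the 8 genes and was the 114th most abundant of the 9431 genes tested. Ptpn6 (chr6:124720707-124738714) was at 1030 ± 135 CPM (SD, n = 3). It was followed by Cd22 (chr7:30865402-30880342) at 815 ± 65.2 (SD, n = 3) and Siglecg (chr7:43408204-43418358) at 413 ± 22.5 (SD, n = 3). Inpp5d (chr1:87620312-87720507) at 173 ± 11.5, Fcgr2b (chr1:170958617-170976547) at 136 ± 21.5 and Cd72 (chr4:43446462-43454628) at 51.1 ± 8.38 (each SD, n = 3) came next. No neighbors in this order overlapped between samples down to Cd72. Cd5 (chr19:10717116-10739002) and Lair1 (chr7:4003402-4063204) both had 1, 3 and 3 counts in the unstimulated samples, at or under the limit of 3 counts used here for detection. All positions are those of the whole genes on GRCm38.

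CpG lowered the levels of all 6 genes tested, and 4 of them, Siglecg, Cd22, Inpp5d and Ptpn6, fell by more than 2-fold. Genes that changed over 2-fold and had an adjusted p (Benjamini-Hochberg) under 0.1 in edgeR's quasi-likelihood test are called DEGs here. Among all genes tested with CpG against unstimulated cells, 25.5% were DEGs that fell and 20.1% were DEGs that rose, and 38.4% were lower at an adjusted p under 0.1 whatever the fold. For the 6 genes the median log2 fold change was -2.51, beside -0.03 over all genes tested.

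Of the receptors, Siglecg fell most. It was at 390, 435 and 415 CPM in unstimulated cells and at 5.53, 5.70 and 6.49 CPM with CpG, from 8 to 13 counts per sample. The groups were far apart, with 1.43% of the unstimulated level left. The log2 fold change was -6.10 (SE 0.23, 95% interval -6.57 to -5.63, edgeR adjusted p = 5.32e-21), the 45th lowest of the 9431 genes. Cd22, the other sialic acid-binding receptor, was at 804, 885 and 755 CPM without stimulation and at 68.2, 63.4 and 102 CPM with CpG. It fell 10.3-fold (log2 fold change -3.37, SE 0.14, edgeR adjusted p = 1.1e-19), and its interval of -3.66 to -3.07 did not overlap that of Siglecg.

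Fcgr2b and Cd72 were lower with CpG by less than 2-fold and are not DEGs. Fcgr2b, the receptor for IgG complexes, was at 158, 116 and 134 CPM without stimulation and at 66.9, 74.8 and 85.9 CPM with CpG (log2 fold change -0.84, 95% interval -1.13 to -0.55, edgeR adjusted p = 4.91e-06). Cd72 was at 50.05, 59.9 and 43.2 CPM without stimulation and at 22.7, 38.5 and 24.0 CPM with CpG (log2 fold change -0.86, 95% interval -1.30 to -0.43, edgeR adjusted p = 0.000663). In neither gene did the samples of both groups overlap, and each kept over 55% of its unstimulated level. The intervals of both genes reached beyond a fold change of 2. Cd72 was a DEG without CpG replicate 2, its highest CpG sample (log2 fold change -1.08, adjusted p = 0.000103).

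Both phosphatase genes fell. Ptpn6 was at 1004, 1173 and 907 CPM without stimulation and at 216, 189 and 237 CPM with CpG, a 4.79-fold lower level (log2 fold change -2.26, SE 0.13, edgeR adjusted p = 1.82e-16). Inpp5d was at 187, 166 and 168 CPM without stimulation and at 20.9, 32.8 and 24.5 CPM with CpG, a 6.73-fold lower level (log2 fold change -2.75, SE 0.16, edgeR adjusted p = 1.45e-16). Every CpG sample was below every unstimulated sample for both genes.

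These changes altered the order of the levels. With CpG, Ptpn6 remained highest at 214 ± 23.9 CPM (SD, n = 3), and Cd22 at 77.8 ± 20.9 and Fcgr2b at 75.9 ± 9.51 (each SD, n = 3) overlapped between samples. Cd72 at 28.4 ± 8.77 and Inpp5d at 26 ± 6.11 (each SD, n = 3) also overlapped. Siglecg was lowest of the 6 at 5.91 ± 0.51 CPM (SD, n = 3) and went from the 316th to the 8254th most abundant gene.

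**Figure D1:**
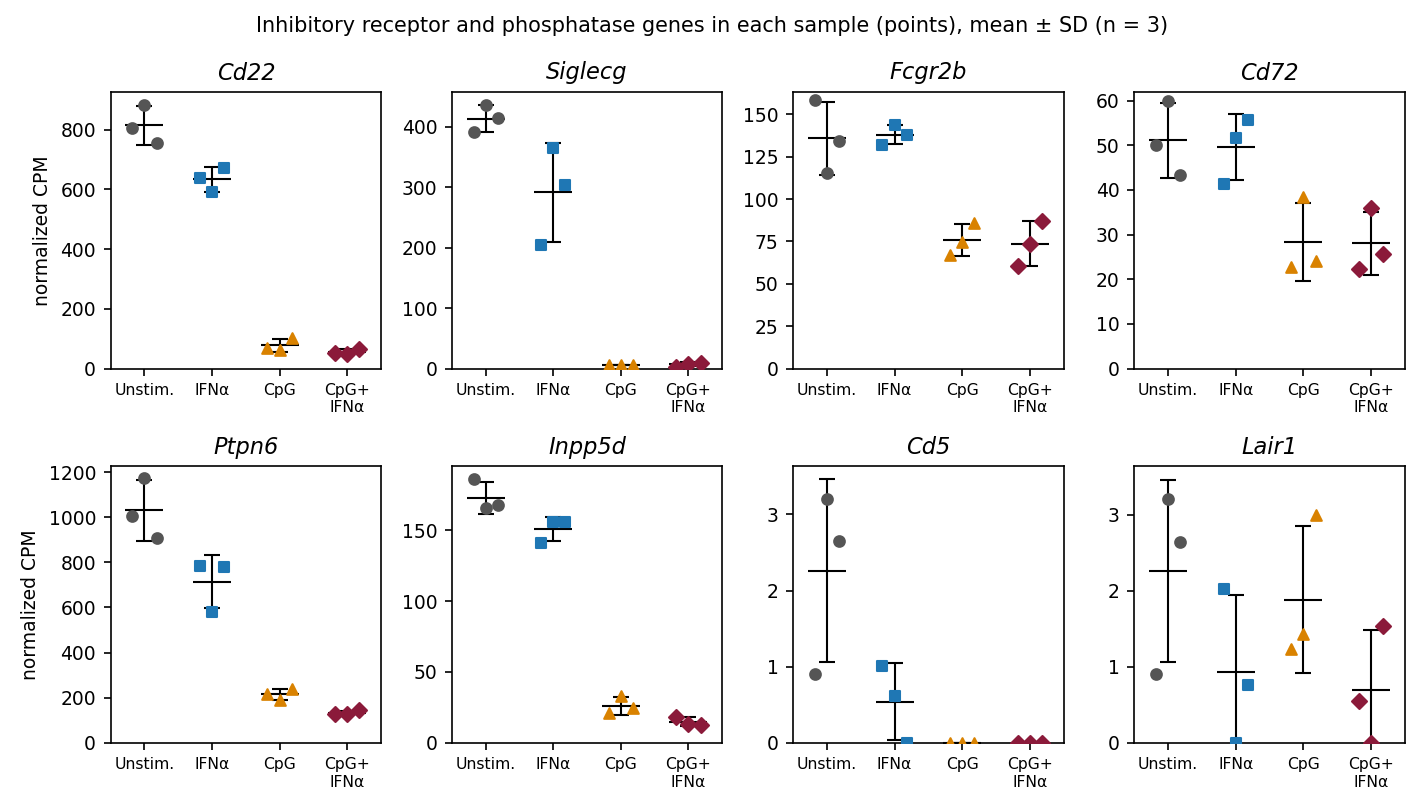
Level of each of the 8 genes in every sample, in TMM-normalized CPM on a linear axis from 0, with points for samples and black lines for mean ± SD (n = 3) in unstimulated cells and with IFNα, CpG or CpG + IFNα. Cd22, Siglecg, Ptpn6 and Inpp5d dropped far below the unstimulated samples in both groups with CpG, Fcgr2b and Cd72 kept over 54% of their level, and Cd5 and Lair1 stayed near 3 CPM or lower, with SD bars cut off at 0.

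With CpG + IFNα, the same 4 genes were DEGs against unstimulated cells, beside 25.6% of all genes tested that fell and 20.3% that rose. All 6 genes were lower at an adjusted p under 0.1, beside 38.8% of all genes. The log2 fold changes were -5.81 for Siglecg, -3.88 for Cd22, -3.57 for Inpp5d, -2.94 for Ptpn6, -0.88 for Fcgr2b and -0.82 for Cd72, with edgeR adjusted p-values from 1.21e-21 for Siglecg to 0.00067 for Cd72. Cd72 was a further DEG without CpG + IFNα replicate 2 (-1.05), and Fcgr2b was one with upper quartile factors (-1.01). Set against cells with IFNα alone, the 4 genes also fell when CpG was given with IFNα, where 25.5% of all genes were DEGs that fell and 39.8% were lower at an adjusted p under 0.1. They were 4 DEGs as well when CpG was compared with IFNα (24.7% of all genes were DEGs that fell). These comparisons share samples with those above and are no separate evidence.

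Cd5 and Lair1 were at or near the limit of detection. Cd5, with 1, 3 and 3 counts without stimulation and 1, 1 and 0 with IFNα, had 0 counts in all 6 samples given CpG, which allows up to 2.14 CPM in the shallowest of them by a limit of 3 counts. Lair1 had 2, 0 and 1 counts with IFNα, 2, 2 and 6 with CpG and 1, 0 and 3 with CpG + IFNα. In an edgeR fit of all 20341 genes with a count in any sample, Cd5 was lower than in unstimulated cells with CpG (adjusted p = 0.0114) and with CpG + IFNα (adjusted p = 0.00549). No fold is given for it, since every sample was at or under the limit of 3 counts. Lair1 passed in none of the comparisons (adjusted p from 0.198 to 1). Limits of this kind cover counting error only.

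IFNα alone changed these genes little. None of the 6 was a DEG, beside 4.07% of all genes that fell and 4.56% that rose, while 3 were lower at an adjusted p under 0.1 with smaller folds, beside 11.9% of all genes. Ptpn6 was at 784, 579 and 778 CPM with IFNα, below all unstimulated samples (log2 fold change -0.53, SE 0.12, edgeR adjusted p = 0.00141). Siglecg was at 204, 365 and 303 CPM, also below all unstimulated samples (log2 fold change -0.49, SE 0.14, edgeR adjusted p = 0.0117). Without IFNα replicate 1, the lowest sample, its log2 fold change was -0.30 (edgeR adjusted p = 0.131). Cd22 was at 639, 591 and 673 CPM, again below all unstimulated samples (log2 fold change -0.36, SE 0.12, edgeR adjusted p = 0.037). The call was lost without unstimulated replicate 2 (log2 fold change -0.29, adjusted p = 0.152) or without IFNα replicate 2 (-0.31, 0.102). By DESeq2 and limma voom, too, none of the 6 was a DEG and 3 were lower at an adjusted p under 0.1, and 3 had an unadjusted p under 0.05 by each of the 3 tools.

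The other 3 genes did not pass. Inpp5d was at 141, 156 and 156 CPM with IFNα (log2 fold change -0.20, 95% interval -0.46 to 0.06, edgeR adjusted p = 0.312). Fcgr2b was at 132, 144 and 138 CPM (0.02, -0.26 to 0.30, edgeR adjusted p = 0.949). Cd72 was at 41.4, 51.7 and 55.7 CPM (-0.02, -0.43 to 0.40, edgeR adjusted p = 0.972). The samples of Fcgr2b and Cd72 overlapped with the unstimulated ones, and those of Inpp5d lay just below them.

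**Figure D2:**
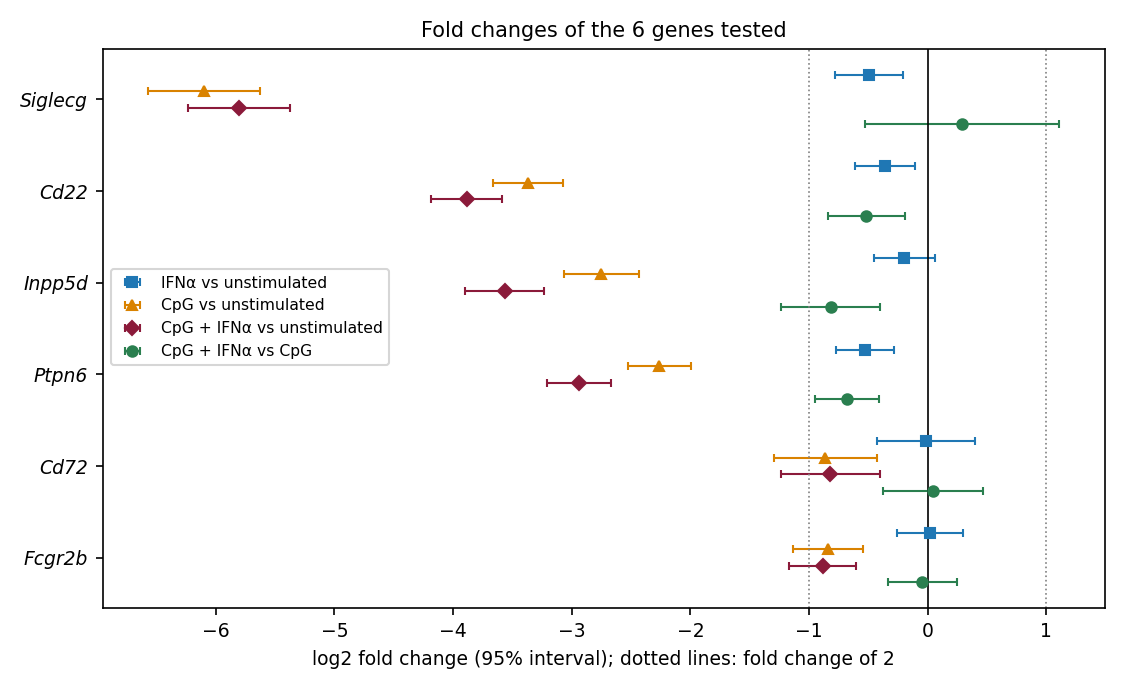
Log2 fold change (horizontal axis) of the 6 genes tested, with 95% intervals as bars, for IFNα, CpG and CpG + IFNα against unstimulated cells and for CpG + IFNα against CpG; dotted lines mark a fold change of 2. Siglecg, Cd22, Inpp5d and Ptpn6 lie beyond -2 in both comparisons of CpG groups with unstimulated cells, whereas no value lies beyond -1 for IFNα alone or for CpG + IFNα against CpG.

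The study asked what IFNα adds to CpG. Both phosphatase genes were lower with CpG + IFNα than with CpG, by less than 2-fold. None of the 6 genes was a DEG (2.01% of all genes fell and 2.95% rose), and 3 were lower at an adjusted p under 0.1, beside 8.83% of all genes. DESeq2 and limma voom gave the same counts of 0 and 3, and by each of the 3 tools 3 genes had an unadjusted p under 0.05. Inpp5d was at 18.5, 13.5 and 12.3 CPM with CpG + IFNα, below all CpG samples (log2 fold change -0.82, SE 0.20, 95% interval -1.23 to -0.40, edgeR adjusted p = 0.00588). Ptpn6 was at 129, 129 and 144 CPM, below all CpG samples as well (log2 fold change -0.68, SE 0.13, 95% interval -0.95 to -0.41, edgeR adjusted p = 0.00037). Both genes stayed lower at an adjusted p under 0.1 with each sample left out in turn.

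Of the receptors, Cd22 was lower and the others did not pass. Cd22 was at 52.9, 48.0 and 65.8 CPM with CpG + IFNα, overlapping the CpG samples (log2 fold change -0.52, SE 0.16, edgeR adjusted p = 0.0303). Its call rested on single samples: without CpG replicate 3 the log2 fold change was -0.26 (adjusted p = 0.432), and without CpG + IFNα replicate 2 it was -0.41 (adjusted p = 0.2). It was also lost when all samples were thinned to the smallest total (-0.32, adjusted p = 0.307). Siglecg was at 3.27, 8.28 and 9.76 CPM, on both sides of the CpG samples (log2 fold change 0.29, 95% interval -0.52 to 1.11, edgeR adjusted p = 0.735), and its 6 to 24 counts per sample left a wide interval. Fcgr2b, at 60.5, 73.5 and 87.4 CPM (-0.05, 95% interval -0.33 to 0.24), and Cd72, at 22.4, 35.9 and 25.7 CPM (0.04, 95% interval -0.38 to 0.47), overlapped with CpG alone, with edgeR adjusted p-values of 0.901 and 0.938.

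Whether IFNα acted differently with CpG than without it was tested by the interaction, the log2 fold change of IFNα with CpG minus that without CpG. If the unstimulated cells were not cultured, the change without CpG holds culture as well as IFNα. The interaction cannot then tell a different response to IFNα from an effect of culture. None of the 6 genes passed at an adjusted p under 0.1 by edgeR, beside 7.58% of all genes below 0 and 5.84% above 0. By edgeR and limma voom 1 gene, and by DESeq2 1 below and 1 above 0, had an unadjusted p under 0.05. Inpp5d came nearest, with an interaction of -0.62 (SE 0.24, 95% interval -1.11 to -0.13, edgeR adjusted p = 0.107). It passed the threshold with the replicate number as a block (-0.62, adjusted p = 0.0965). It also passed without unstimulated replicate 1 (-0.68, adjusted p = 0.0976), without CpG replicate 1 (-0.75, adjusted p = 0.0651) and without CpG + IFNα replicate 1 (-0.79, adjusted p = 0.0537). Siglecg had an interaction of 0.78 (95% interval -0.08 to 1.65, edgeR adjusted p = 0.278). Ptpn6 and Cd22 were at -0.15 (95% interval -0.52 to 0.22, edgeR adjusted p = 0.684) and -0.16 (95% interval -0.57 to 0.25, edgeR adjusted p = 0.713), and Fcgr2b and Cd72 at -0.06 and 0.06, with edgeR adjusted p-values of 0.9 and 0.941.

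**Figure D3:**
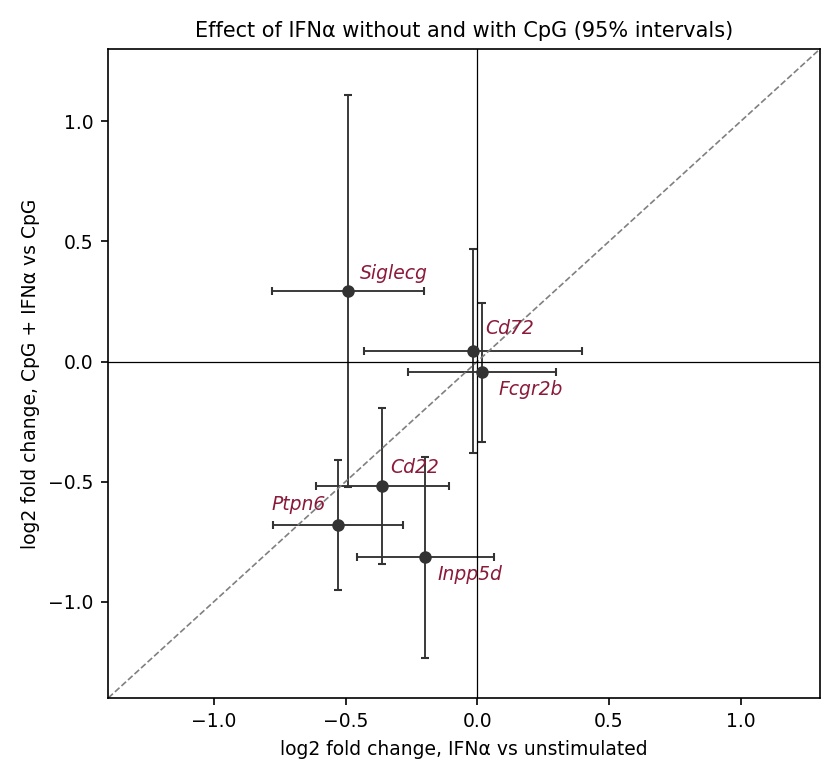
Log2 fold change of the 6 genes tested with IFNα against unstimulated cells (horizontal axis) and with CpG + IFNα against CpG (vertical axis); bars are 95% intervals and the dashed line marks equal changes. Ptpn6, Cd22 and Inpp5d lie below 0 on both axes, Fcgr2b and Cd72 lie near 0 on both, and the interval of Siglecg with CpG runs from -0.52 to 1.11.

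The 6 genes differed in how far their levels moved over the 12 samples. As a measure of likeness, the root mean square difference of log2(CPM + 1) after each gene was centered on its own mean was computed over the 12 samples. The values were not scaled, so that the measure depends on the size of a change as well as on its shape. By this measure Cd72 and Fcgr2b were the most alike of the 15 pairs at 0.293, followed by Cd22 and Inpp5d at 0.396 and by Ptpn6 and Inpp5d at 0.455. Siglecg was nearest to Cd22, at 1.14, and farthest from Cd72, at 2.4. Among the other genes tested, Ppp1r18 (0.173) and Flna (0.174), which encodes filamin A, were nearest to Cd22. Jak3, a kinase of cytokine receptors, was nearest to Ptpn6 (0.15), Ets1, a transcription factor of lymphocytes, to Inpp5d (0.211), Sgpl1 to Cd72 (0.164), mt-Nd6, a mitochondrial gene, to Fcgr2b (0.107), and Gsn, which encodes gelsolin, to Siglecg (0.315). These likenesses are descriptions without a test.

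The other genes of this signaling were taken from lists chosen with earlier results of these data known. Of 28 other inhibitory receptor genes, 9 were tested, and with CpG 6 were DEGs that fell and 1 was a DEG that rose (median log2 fold change -1.62). Pirb, a receptor for MHC class I, fell by 4.39 on the log2 scale from 56.4 ± 13.3 CPM (SD, n = 3). Btla, the receptor for HVEM, fell by 1.62, and Pecam1 fell by 1.42. Fcrl5 was the exception, and rose from 24.2 ± 6.29 to 118 ± 15.9 CPM (SD, n = 3 each; log2 fold change 2.27, edgeR adjusted p = 7.23e-13). With CpG + IFNα against CpG, Ceacam1 was the 1 DEG of the 9 and fell from 8.22 ± 2.93 to 2.42 ± 1.54 CPM (SD, n = 3 each; log2 fold change -1.76, edgeR adjusted p = 0.00265), although the call was lost when all samples were thinned to the smallest total (-0.57, adjusted p = 0.681).

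Of 20 genes tested from the list of other phosphatases, 14 were DEGs that fell with CpG and 0 rose as DEGs (median log2 fold change -1.60) by edgeR, DESeq2 and limma voom alike. Sit1 (log2 fold change -3.97), named after its value was seen, is among these 14 and is an adaptor gene. Ptpn2, named after its value was seen, at a log2 fold change of 0.99, and Ptpn11 lay just under the threshold: 2 rose as DEGs without unstimulated replicate 1, and 1 without IFNα replicate 1 or 3, CpG replicate 3 or any CpG + IFNα replicate. Ptprc, which encodes the receptor phosphatase CD45, fell by 2.14 on the log2 scale, Ptpn18 fell by 2.01 and Ptprj, which encodes CD148, fell by 3.85. Inppl1, which encodes SHIP-2, the relative of SHIP-1, went from 7.59 ± 1.46 to 0.813 ± 0.375 CPM (SD, n = 3 each; edgeR adjusted p = 9.37e-05). No fold is given for it, since it had 7, 7 and 10 counts without stimulation and 1, 1 and 2 with CpG, under the limit of 3 counts. Ptpn11, which encodes SHP-2, the relative of SHP-1, went the other way: it was at 45.5 ± 9.68 CPM without stimulation and 82.0 ± 11.3 CPM with CpG (SD, n = 3 each; log2 fold change 0.84, edgeR adjusted p = 4.4e-05), under 2-fold. None of the 20 was a DEG with CpG + IFNα against CpG by edgeR (1 was with limma voom, and without unstimulated replicate 3, CpG replicate 1 or 2, or CpG + IFNα replicate 2; 6 had an unadjusted p under 0.05), and Ptpn11 was at 76.9 ± 3.98 CPM (SD, n = 3) there.

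Of the kinases and adaptors of inhibitory signaling, 13 of 19 tested were DEGs that fell with CpG and 0 rose (median log2 fold change -1.27), with 1 that rose, Grap (named after its value was seen), when unstimulated replicate 3 or CpG replicate 3 was left out. Lyn, the kinase that phosphorylates ITIMs, fell by 1.19 on the log2 scale from 302 ± 31.5 CPM (SD, n = 3). Dok3, an adaptor that binds SHIP-1, fell by 5.21 from 239 ± 14.5 CPM (SD, n = 3), Laptm5 fell by 3.46, and Blk, a kinase of the Lyn family, fell by 3.93. With CpG + IFNα against CpG, Sh3bp2 was a DEG that rose (log2 fold change 1.57, edgeR adjusted p = 7.89e-06) and Dok3 a DEG that fell (log2 fold change -1.13, edgeR adjusted p = 0.069). Dok3 lost its call without CpG replicate 1 (-0.79, adjusted p = 0.364), CpG replicate 3 (-1.25, adjusted p = 0.103) or CpG + IFNα replicate 2 (-0.67, adjusted p = 0.426), and also with thinned counts (-0.47, adjusted p = 0.727) and without the filter on low counts (-1.07, adjusted p = 0.125).

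The genes for the ligands of these receptors and for sialic acid fell in part. Of 15 tested, 8 were DEGs that fell with CpG and 0 rose (median log2 fold change -1.19). St6gal1, which makes the α2,6-linked sialic acid bound by CD22, fell by 3.02 on the log2 scale from 204 ± 18.8 CPM (SD, n = 3). Cmah, which makes the glycolyl form of sialic acid, fell by 5.07 and Sema4d, the ligand gene of CD72, went from 185 ± 21.1 to 45.2 ± 11.4 CPM (SD, n = 3 each). St3gal1 was the 1 DEG of the 15 with CpG + IFNα against CpG (log2 fold change -1.71, edgeR adjusted p = 0.000131), and the count was 2 without CpG replicate 2 or 3 or CpG + IFNα replicate 1.

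Of 19 BCR and coreceptor genes tested, 13 were DEGs that fell with CpG and 0 were DEGs that rose (median log2 fold change -1.44). Cd79a and Cd79b, the signaling chains of the BCR, had log2 fold changes of -4.12 and -3.17, and the coreceptor gene Cr2 of -3.61. Cr2 was the 1 DEG of the list with CpG + IFNα against CpG (log2 fold change -1.28, edgeR adjusted p = 0.000745), with 0 DEGs without CpG replicate 3 and 2 without CpG + IFNα replicate 1. With IFNα alone, 3 of the 9 other inhibitory receptors tested were DEGs that fell and 1 was a DEG that rose. In each of the other 4 lists, of 15 to 20 genes tested, 1 was a DEG that fell and at most 1 rose, beside 4.07% and 4.56% of all genes. The 3 receptors, named here after their values were seen, were Pirb (log2 fold change -1.17, edgeR adjusted p = 0.000264), Vsir (-1.25, 0.0126) and Clec12a, which had 10, 13 and 17 counts without stimulation and 0, 1 and 3 with IFNα. Clec2d, also named after its value was seen, was the 1 that rose (log2 fold change 1.14, edgeR adjusted p = 0.00398). It was listed with the receptors, although its product is known as a ligand of an inhibitory receptor. From unstimulated cells to IFNα, the myeloid markers Tyrobp and Lyz2 went from 25.2 to 4.45 CPM and from 5.3 to 0 CPM. Cst3, Adgre1 and Fcer1g went the other way, from 343 to 494, from 1.67 to 9.24 and from 1.3 to 1.79 CPM. The remaining myeloid markers with a row were lower with IFNα. The part of these markers in the changes of the 3 receptors was not tested. The lists were not tested against each other or against the 6 genes.

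**Figure D4:**
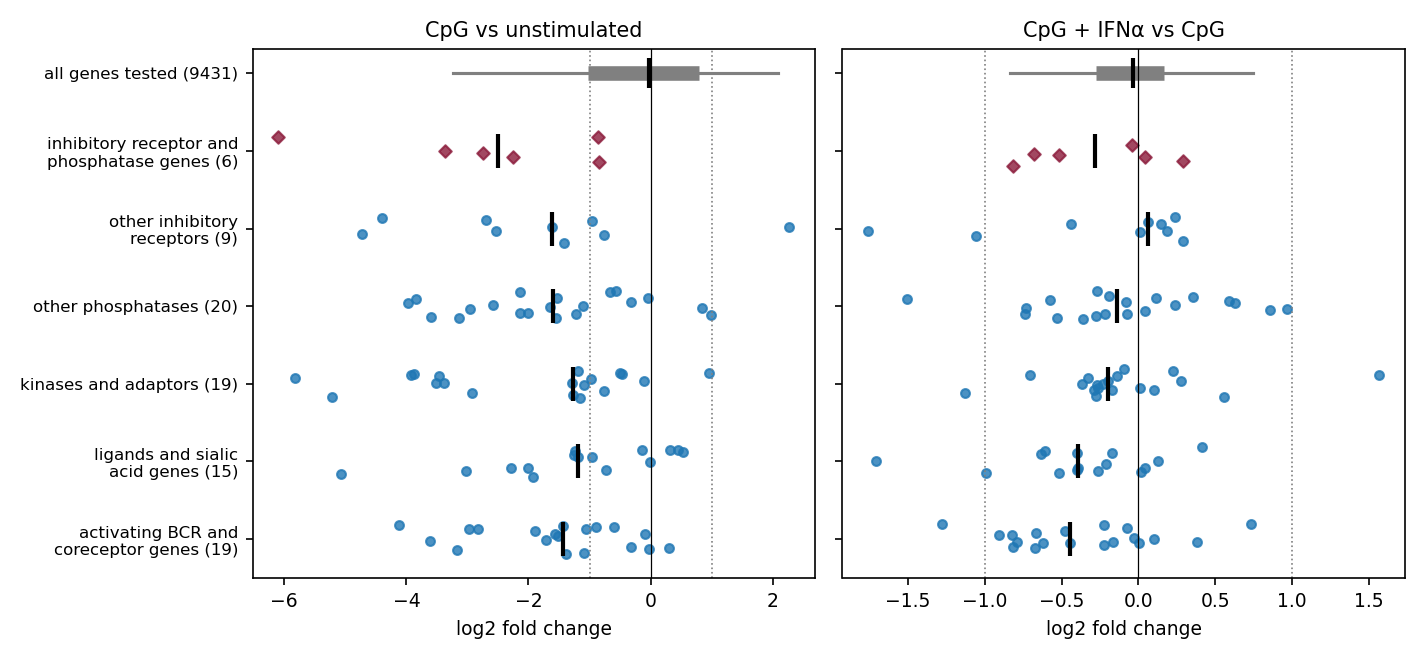
Log2 fold change (horizontal axis) with CpG against unstimulated cells and with CpG + IFNα against CpG for the 6 genes tested (diamonds) and for the 5 lists of other genes (circles, number tested in brackets); black lines mark medians, and the gray bar and line span the middle 50% and 90% of all 9431 genes. With CpG the medians of all 5 lists lie from -1.62 to -1.19 and that of the 6 genes at -2.51, and with CpG + IFNα against CpG they lie from -0.44 to 0.06 and at -0.28.

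The identity of the cells was checked by marker genes. All 9 B cell markers had counts in every group, and their summed level was 9060 to 10300 CPM in unstimulated cells, 7630 to 8420 with IFNα, 1770 to 1930 with CpG and 1480 to 1650 with CpG + IFNα. This sum moved with the fall of the 6 genes, and its part in the result was not tested. Of 10 T cell markers with a row, 1 was tested, and their sum was 31.8 to 48.1 CPM in unstimulated cells, 43.8 to 51.9 with IFNα, 4.28 to 11.7 with CpG and 5.45 to 7.93 with CpG + IFNα. Most of these counts were Lck, with Trac next in both groups with CpG, while Cd3g, Cd8a and Cd6 had 0 counts in every sample. Of 12 myeloid markers, which bear on Ptpn6, Fcgr2b, Lair1 and Pirb, 3 were tested, and their sum went from 362 to 436 CPM in unstimulated cells to 446 to 555 with IFNα, 83.9 to 106 with CpG and 74.7 to 90.5 with CpG + IFNα. Most of this was Cst3, and Lyz2, Cd14, Fcgr3, Fcgr1 and S100a8 had 0 counts in all 9 stimulated samples and 1 to 16 counts in all in the unstimulated ones. Markers of marginal zone B cells, which carry more CD21 than FO B cells, summed to 250 to 264 CPM without stimulation, 93.8 to 136 with IFNα, 43.6 to 56.3 with CpG and 27.8 to 37.0 with CpG + IFNα. Those of B-1 cells, which express Cd5 and Siglecg, summed to 69.5 to 136, 90.8 to 194, 47.9 to 113 and 90.5 to 143 CPM in the same order. Of these, Zbtb32 went from 4.01 CPM with CpG to 58.4 with CpG + IFNα, while Spn, Bhlhe41 and Cd9 were not higher there. Those of plasma cells summed to 559 to 612, 610 to 698, 684 to 711 and 444 to 522 CPM. Between CpG and CpG + IFNα, Mzb1 was at 498 and 247 CPM and Irf4 at 127 and 179 CPM. Those of erythroid cells summed to 57.4 to 345, 15.3 to 336, 4.99 to 60.8 and 5.65 to 72.0 CPM. The part of each in the changes of the 6 genes was not tested.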

How the data were processed

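BRB sequencing was run on RNA of 12 samples of FO B cells from spleen. It is an oligo(dT)-primed 3′ method with a barcode per sample. The deposited values are raw UMI counts of each gene. Per the submitters' processing notes and the methods, the authors used UMI-tools 1.1.2, Trim Galore 0.6.7, HISAT2 2.2.1 on GRCm38 and featureCounts 2.0.1, and extended Tlr9 at its end. The annotation release and the strand setting are not given in the sources used here. All 22561 gene identifiers of the table are in GENCODE M21, which gave positions. A 3′ end outside the annotated gene lowers its count.

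TMM factors and CPM were computed from these counts with edgeR 4.0.16 (R 4.3.3). After filterByExpr by group, 9431 genes were tested by glmQLFit and glmQLFTest in 1 fit of all samples, with 8 residual degrees of freedom and two-sided p-values adjusted by Benjamini-Hochberg over all of them. DEGs were genes with a log2 fold change beyond 1 in either direction whose adjusted p was under 0.1. The interaction was called by its adjusted p alone. A gene with at most 3 counts in each sample of a group was taken as at the limit of detection. The total of each sample, from 922450 to 2923865 counts, sets the precision of low genes such as Siglecg with CpG.

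Members and lists were chosen with earlier results of these data known. Named genes are the 8 members, up to 3 DEGs of each direction with the smallest p per list in CpG against unstimulated cells and in CpG + IFNα against CpG, 10 genes of this signaling fixed by name, the genes nearest in pattern, and markers. For 1 of the genes that the rule names, the result is not reported here. Genes named outside the rule are marked as named after their values were seen. Lists were other inhibitory receptors, other phosphatases, kinases and adaptors, ligands and sialic acid genes, activating BCR and coreceptor genes, and markers of B cells, T cells, myeloid cells, B-1 cells, marginal zone B cells, plasma cells and erythroid cells. The list of other phosphatases also holds the adaptor gene Sit1. Promoters and motif shares came from RefSeq on GRCm38.p6.

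The script was tested on simulated data, in which 200 genes were changed in CpG + IFNα and 196 of these were among the 9130 genes tested. Alternatives were other normalizations (RLE, upper quartile, library size), filters and thresholds, DESeq2 1.42.0, limma 3.58.1 voom, fits without the other groups, thinning of all samples to the smallest total, a replicate block, and leaving out single samples. Removal of rRNA and mitochondrial genes was added after seeing the data. For pairs of replicates, chi-square per degree of freedom was 1.90 to 6.31, above counting noise, and no 2 samples were merged.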

Additional observations from a re-analysis of the deposited data

Results flagged for a closer look

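None of the 6 tested inhibitory receptor and phosphatase genes responded differently to IFNα with CpG than without it at an adjusted p under 0.1. Inpp5d came nearest in edgeR's interaction (-0.62, adjusted p = 0.107). It passed with the replicate block and when some single samples were left out. By edgeR's test of the interaction (the log2 fold change of IFNα with CpG minus that without CpG), 5 of the 82 tested genes of the 5 lists were above 0 and 10 below 0, beside 5.84% and 7.58% of all genes tested. The rule for named genes names 7 of these, and the other 8 are named after their values were seen. It is not stated whether the unstimulated cells were cultured. If they were not, culture and IFNα cannot be told apart in these values. Cr2 (1.09, adjusted p = 0.0306) and Fcrl5 (0.959, adjusted p = 0.0371) were above 0. Of those named after their values were seen, Inpp4b (1.83, adjusted p = 0.0121), Grap (0.754, adjusted p = 0.00302) and St8sia4 (0.6, adjusted p = 0.0534) were above 0 as well. Inpp4b had 2, 6 and 6 counts with CpG. Cr2 fell by 2.38 on the log2 scale with IFNα alone and by 1.28 when IFNα was added to CpG. Cd79b (-1, adjusted p = 0.000256), Cd79a (-0.964, adjusted p = 0.00231), Ptpn18 (-0.703, adjusted p = 0.0331), Pecam1 (-0.547, adjusted p = 0.0488) and St3gal1 (-1.06, adjusted p = 0.0623) were below 0. Btk (-1.2, adjusted p = 0.000138), Cd52 (-0.757, adjusted p = 0.0023), Lax1 (-1.41, adjusted p = 0.0346), St3gal6 (-0.793, adjusted p = 0.061) and Nans (-0.667, adjusted p = 0.0626), named after their values were seen, were below 0 too. Btk, Cd52, Cd79a, Cd79b, Grap and Inpp4b kept their call under every alternative run. The others lost it under at least 1: Fcrl5 without unstimulated replicate 3 (0.88, adjusted p = 0.119) or IFNα replicate 3 (0.79, 0.146), Cr2 with DESeq2 (1.13, 0.192) or without CpG + IFNα replicate 3 (0.73, 0.233), Lax1 with thinned counts (-1.50, 0.207) or without CpG replicate 3 (-1.25, 0.15) or CpG + IFNα replicate 2 (-1.19, 0.134), St8sia4, St3gal6 and Nans with DESeq2 (0.63, -0.77 and -0.63, with adjusted p = 0.111, 0.187 and 0.232), and Ptpn18, Pecam1 and St3gal1 with DESeq2 (-0.66, -0.52 and -1.04, with adjusted p = 0.109, 0.154 and 0.16), with thinned counts (-0.43, -0.56 and -0.86, with adjusted p = 0.378, 0.107 and 0.299) and without single samples, among them unstimulated replicate 3 and CpG replicate 3 for each of the 3 genes. Without single samples, Nans lost its call except where IFNα replicate 3, CpG replicate 1 or CpG + IFNα replicate 1 was left out, St3gal6 lost it without unstimulated replicate 1, IFNα replicate 2, CpG replicate 1 or 2 or CpG + IFNα replicate 3, and St8sia4 without unstimulated or IFNα replicate 3 or CpG or CpG + IFNα replicate 2 (adjusted p from 0.104 to 0.215 for these).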

How the results depend on the processing

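Against unstimulated cells or IFNα, the 4 DEGs that fell with CpG or CpG + IFNα stayed within 3 to 6 under every alternative run. There were 6 without a fold change threshold, and 3 with CpG against IFNα at a log2 fold change over 2. There were 5 where 1 gene joined: Cd72 without CpG replicate 2 or CpG + IFNα replicate 2, Fcgr2b without CpG + IFNα replicate 3 (against IFNα) or with upper quartile factors, and Cd5 without the filter. The call of Cd5 rests on a fold between samples all at or under the limit of 3 counts. Without a fold change threshold, 3 genes were lower with IFNα against unstimulated cells and 3 with CpG + IFNα against CpG, in place of 0. In the interaction, the replicate block gave 1 gene below 0 (Inpp5d), and leaving out each sample in turn gave between 0 and 1. The replicate numbers were not taken to pair the samples, since not every pair correlated above 0.1: over 18 pairs of the same number in different groups the correlation of deviations was between -0.0721 and 0.222, with 6 over 0.1. The 6 were all between stimulated groups, and 10 of 12 samples correlated best with a sample of their own number, a hint from the data that the numbers may mark something shared among stimulated samples. The block changed no other call of the 6 genes. Differences near 0 changed sign. Fcgr2b with IFNα against unstimulated cells was at -0.0477 with upper quartile factors, -0.0633 with library size only and -0.0168 without rRNA and mitochondrial genes, and in the interaction at 0.0108 and 0.0056 with the latter 2. With CpG + IFNα against CpG, Fcgr2b was at 0.0166 without the filter and 0.0368 with thinned counts, and the interaction of Cd22 was 0.0394 with thinned counts. With each sample left out in turn, the log2 fold change with IFNα ranged from -0.16 to 0.11 for Cd72 and from -0.0741 to 0.15 for Fcgr2b, that of CpG + IFNα against CpG from -0.21 to 0.29 and from -0.17 to 0.0682, and the interaction from -0.20 to 0.30 and from -0.20 to 0.0445, for the same genes. The interaction ranged from -0.30 to 0.10 for Cd22 and from -0.29 to 0.0019 for Ptpn6. The cause was not tested. Depth limits Cd5 and Lair1, which were not tested, and Siglecg after CpG, with 6 to 24 counts per sample.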
